A study of Mus musculus with 2 samples.

Results

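The mir-135 family of the mouse consists of 3 genes, Mir135a-1, Mir135a-2 and Mir135b, which were taken by symbol from the 1973 counted microRNA genes of the midbrain at embryonic day 10.5. All 3 were among the counted genes and all 3 were detected. Small RNA shorter than 30 nt was sequenced in 2 libraries, the biological replicates of a single group. Replicate 1 came from the pooled midbrains of 69 embryos and replicate 2 from those of 51 embryos, of strain B6NCrl and both sexes, with no allele or agent in either pool. With this group alone, and nothing to set it against, the data give the level of each gene and its spread between the pools. In such whole tissue, fewer cells of a type and less RNA per cell cannot be told apart.

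A microRNA is cut from a hairpin precursor and pairs with target mRNAs mainly through its seed, the bases 2 to 8 counted from its 5′ end, which leads to their repression. As background from mouse studies, miR-135a acts in the embryonic midbrain on Lmx1b, a LIM homeodomain transcription factor of the floor plate and roof plate, and excess miR-135a lowers Lmx1b and Wnt1 signalling and the number of dopaminergic progenitors. Mir135a-2 lies within Rmst, a long noncoding RNA known in mouse as a marker of the midbrain floor plate. miR-135b is known from human cells, where it promotes the neural conversion of pluripotent cells and represses the Wnt antagonist gene APC.

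The sequences are shown because the shared and the differing bases decide which reads could be assigned to a gene. All 3 genes matched a hairpin in RefSeq (GRCm38.p6, the same build as mm10), given here 5′ to 3′ with the seed of the 5p arm in capitals.
Mir135b hairpin: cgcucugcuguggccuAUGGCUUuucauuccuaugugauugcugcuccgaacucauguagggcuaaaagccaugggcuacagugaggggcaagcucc
Mir135a-1 hairpin: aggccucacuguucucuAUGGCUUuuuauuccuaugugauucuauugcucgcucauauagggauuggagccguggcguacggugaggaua
Mir135a-2 hairpin: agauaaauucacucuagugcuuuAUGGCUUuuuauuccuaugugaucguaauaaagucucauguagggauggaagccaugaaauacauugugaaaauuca
The mature sequences available follow, with bases 2 to 8 in capitals. For Mir135b only the listed arm was available.
miR-135a-5p: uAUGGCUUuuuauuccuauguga
miR-135a-1-3p: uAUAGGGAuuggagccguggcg
miR-135a-2-3p: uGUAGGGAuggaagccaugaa
miR-135b-3p: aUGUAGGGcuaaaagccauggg

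Mir135a-1 and Mir135a-2 encode the same miR-135a-5p, and in the table of 1738 mature entries its seed occurred in these 2 genes only. That table held no entry for the Mir135b counterpart of miR-135a-5p, so the count does not cover this arm of Mir135b. The stretch of the Mir135b hairpin in the place of miR-135a-5p, bases 16 to 38, had the same seed and differed by the substitution U11C, counted from the 5′ end of miR-135a-5p with its base first.
Stretch of Mir135b: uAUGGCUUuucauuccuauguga
The 3p arms differed in their seeds, and none of these 3 seeds occurred in another gene of the table. The hairpins also differed in composition, with 53.6% G and C in Mir135b, 46.7% in Mir135a-1 and 33.0% in Mir135a-2. Their predicted folding energies were −48.7, −43.5 and −34.5 kcal/mol in the same order.

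The longest run shared by the Mir135a-1 and Mir135a-2 hairpins was 24 bases, which holds the whole of miR-135a-5p (capitals) and the base after it.
Shared run: UAUGGCUUUUUAUUCCUAUGUGAu
Of the 69 windows of 22 bases in the Mir135a-1 hairpin and the 79 in the Mir135a-2 hairpin, 3 were common to both, all within this run. The hairpin of Mir135b shared no such window with either, and its longest shared runs were 14 bases with Mir135a-1 and 13 with Mir135a-2. A read inside the 24 bases has at least 2 equal places in the genome, and reads that mapped to several places were kept in a row of their own, outside the gene counts. The counts of Mir135a-1 and Mir135a-2 thus leave out such reads, and can hold reads of the 3p arms and reads that reach beyond the run or differ from it. Arms and read lengths are not separated in these counts, so how much of miR-135a-5p was left out was not tested. Mir135b had no such limit among the annotated microRNA hairpins.

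**Figure D1:**
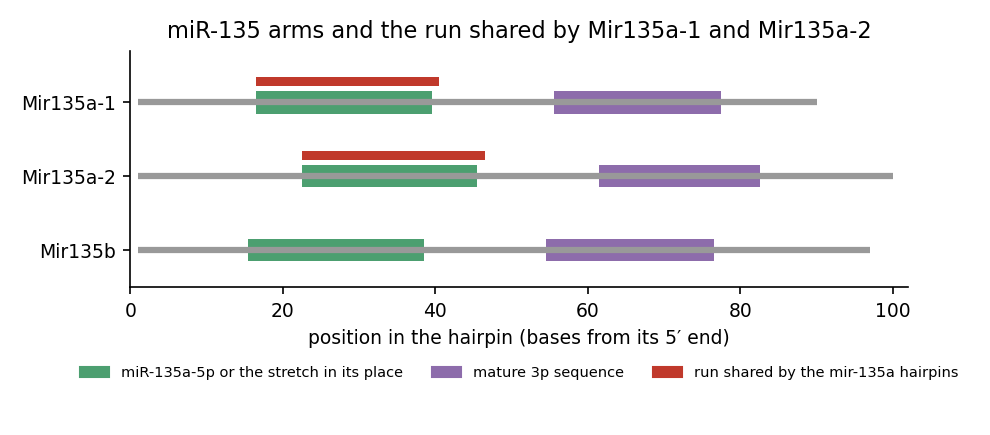
Map of the 3 hairpins, with the position in bases from the 5′ end on the x axis. Green marks miR-135a-5p or the stretch in its place, purple the mature 3p sequence and red the run of 24 bases that Mir135a-1 and Mir135a-2 share, which covers their 5p arm whole and does not touch their 3p arms.

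The libraries held 7810040 and 9423767 reads, of which 3297835 and 3682410 were assigned to a microRNA gene. Reads that mapped to several places numbered 2412710 (30.9% of the library) in replicate 1 and 2775444 (29.5%) in replicate 2. Of the lists of microRNAs known from given cell types, the neural list (6 members counted) summed to 21407 and 25440 CPM (reads per 1000000 gene-assigned reads), nearly all of it from Mir92b of neural progenitors at 21245 and 25352 CPM. Mir126a, known from endothelium, had 26449 and 30780 CPM, and the mesenchyme list summed to 12660 and 10245 CPM. The epithelium list summed to 2525 and 3426 CPM. The erythroid list summed to 404 and 374 CPM and the leukocyte list to 588 and 581 CPM. The Hox-embedded list, at 162 and 395 CPM, and the eye list, at 249 and 431 CPM, were higher in replicate 2. Of the leukocyte list 2 of 3 symbols were counted, and Mir142 was not found under that name. A gene named Mir142b, outside the list, had 682 CPM in replicate 1 and 865 CPM in replicate 2, above the leukocyte sum. The muscle list summed to 10.01 and 10.59 CPM, with Mir1a-1, Mir133a-1 and Mir133a-2 at 0 reads. These 3 genes, the 5 neural members other than Mir92b, 2 of the mesenchyme list and 2 of the Hox-embedded list have 20 bases in common with a microRNA gene elsewhere and can lose reads, so their sums and zeros do not give the level of the mature microRNA. The part of these cell types in the levels of the mir-135 genes was not tested.

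Mir135b was the main source of gene-assigned reads in the family. Mir135b (ENSMUSG00000065435.1, chr1:132198088-132198184, plus strand, mm10) lies in an intron of Lemd1, and of the overlapping gene AC124108.1, on the same strand. It had 20795 reads in replicate 1 and 15755 in replicate 2. These were 6306 CPM (95% Wilson interval 6221 to 6392) and 4278 CPM (4212 to 4346), with a mean of 5292 ± 1433 CPM (SD, n = 2). It ranked 37 and 48 among the 1973 genes, of which 690 had a read in replicate 1 and 700 in replicate 2. The level was higher in replicate 1, and the intervals of the libraries did not overlap. Intervals here cover the counting error of reads only and leave out the spread between pools. They can be too narrow, since several reads can stem from 1 molecule where no molecular identifiers are used.

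Mir135a-1 (ENSMUSG00000065407.1, chr9:106154124-106154213, plus strand) lies in an intron of the antisense transcript D030055H07Rik, on the strand opposite to an exon of Glyctk, the gene of glycerate kinase, outside its coding sequence. It had 951 reads in replicate 1 and 853 in replicate 2, or 288 CPM (271 to 307) and 232 CPM (217 to 248), a mean of 260.0 ± 40.1 CPM (SD, n = 2), and ranked 166 and 178. Its intervals did not overlap either, and replicate 1 was again the higher library.

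Mir135a-2 (ENSMUSG00000065524.1, chr10:92072086-92072185, minus strand) lies in an intron of Rmst on the same strand. It had 627 reads in replicate 1 and 654 in replicate 2, which were 190 CPM (176 to 206) and 178 CPM (165 to 192), a mean of 184 ± 8.86 CPM (SD, n = 2), with rank 187 in both libraries. Its intervals overlapped, and of the family it had the smallest SD relative to its mean. No read of any of the 3 genes stood in the column taken as the opposite strand, which allows up to 0.478% of the reads of a gene in replicate 1 and 0.459% in replicate 2, the limit for the gene with the fewest reads, Mir135a-2.

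**Figure D2:**
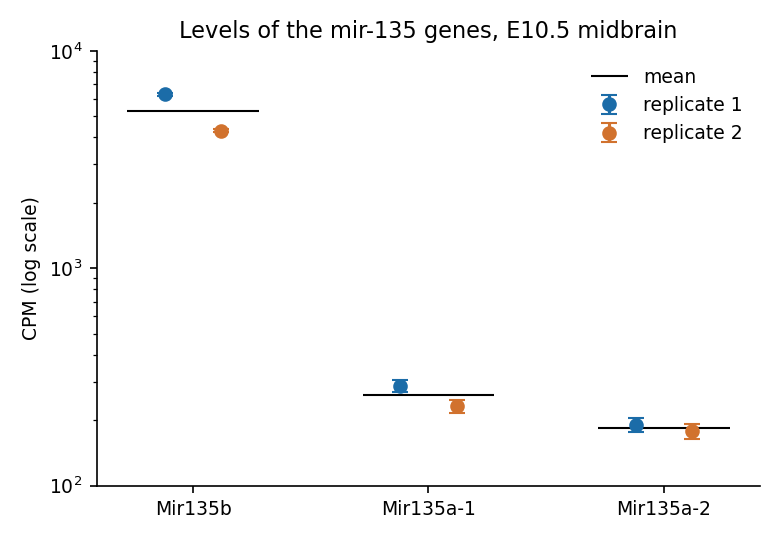
CPM of each mir-135 gene in replicate 1 (blue) and replicate 2 (orange) on a log axis, with 95% Wilson intervals as error bars and the mean of the libraries as a line. Mir135b stands at 6306 and 4278 CPM, and the other genes between 178 and 288 CPM.

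The order Mir135b, Mir135a-1, Mir135a-2 was the same in both libraries. Mir135b had 21.9 times the reads of Mir135a-1 in replicate 1 (95% exact binomial interval 20.5 to 23.4) and 18.5 times in replicate 2 (17.2 to 19.8). It had 33.2 times the reads of Mir135a-2 in replicate 1 (30.6 to 36.0) and 24.1 times in replicate 2 (22.3 to 26.1). Mir135a-1 had 1.52 times the reads of Mir135a-2 in replicate 1 (1.37 to 1.68) and 1.30 times in replicate 2 (1.18 to 1.45). The mir-135a genes are the closest neighbours in this order, and their CPM values did not overlap between the libraries, at 288 and 232 against 190 and 178. A microRNA read covers its mature sequence, so CPM was not divided by length. Per 100 bases of annotated gene the levels were 6501 and 4411 CPM for Mir135b, 320.4 and 257 CPM for Mir135a-1 and 190 and 178 CPM for Mir135a-2, in the same order. All ratios to a mir-135a gene are ratios of gene-assigned reads and not of mature microRNAs, because of the run that the mir-135a hairpins share.

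Summed, the family held 22373 reads or 0.678% of the gene-assigned reads in replicate 1 and 17262 reads or 0.469% in replicate 2. Mir135b made up 92.9% of the family's reads in replicate 1 (exact binomial interval 92.6 to 93.3%) and 91.3% in replicate 2 (90.8 to 91.7%). Mir135a-1 made up 4.25% and 4.94%, and Mir135a-2 made up 2.80% and 3.79%. The share of Mir135b was higher in replicate 1 beyond counting error and averaged 92.1% ± 1.19 (SD, n = 2).

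The 3 genes differed between the pools by unequal amounts. The ratio of replicate 1 to replicate 2, on library sizes scaled by TMM (trimmed mean of M values), was 1.47 for Mir135b (95% counting interval 1.44 to 1.50, log2 ratio 0.55). It was 1.24 for Mir135a-1 (1.13 to 1.36, log2 ratio 0.31) and 1.07 for Mir135a-2 (0.955 to 1.19, log2 ratio 0.09). All 3 were above 1, and the interval of Mir135b did not overlap those of the mir-135a genes. The read counts were also compared by an exact binomial test, which sets library against library and not condition against condition. It was run on 485 genes and called 49.7% of them at a Benjamini-Hochberg adjusted level of 0.05. It called Mir135b (adjusted p = 5.99e-292) and Mir135a-1 (adjusted p = 1.60e-05) higher in replicate 1, and did not call Mir135a-2 (adjusted p = 0.367). With 26.6% of all tested genes called higher and 23.1% called lower in replicate 1, such a call does not set a gene apart.

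The differences also lay within the spread of other genes between the pools. Over the 338 genes of mean CPM 10 or more the SD of the log2 ratio was 0.57, and the median of its absolute value was 0.26. Of the other 337 genes, 64 (19.0%) had an absolute log2 ratio at least as large as Mir135b, 144 (42.7%) one at least as large as Mir135a-1 and 268 (79.5%) one at least as large as Mir135a-2. Among the 45 genes whose mean CPM was within 2-fold of that of Mir135b, 6 had as large an absolute log2 ratio, 2 of them in the same direction.

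**Figure D3:**
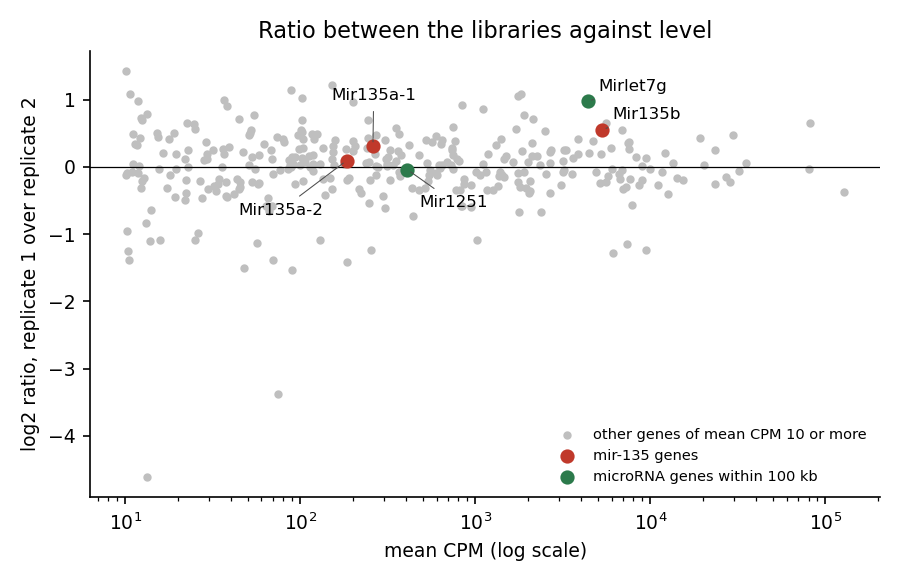
Log2 ratio of replicate 1 over replicate 2 (y axis) against mean CPM on a log axis for the 338 genes of mean CPM 10 or more. The mir-135 genes (red) stand at 0.55, 0.31 and 0.09, and the microRNA genes within 100 kb of them (green), Mirlet7g and Mir1251, at 0.97 and −0.04.

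The microRNA genes within 100 kb of a mir-135 gene were Mirlet7g and Mir1251. Mirlet7g, a let-7 gene on the plus strand of chromosome 9 (chr9:106178840-106178927), lies 24.6 kb from Mir135a-1 and had 5815 CPM in replicate 1 and 2949 CPM in replicate 2. Its ratio was 1.97 (1.92 to 2.01), above the 1.24 of Mir135a-1, and the counting intervals did not overlap. Mir1251 (chr10:92137140-92137223, minus strand) lies within Rmst, as does Mir135a-2, at a distance of 65.0 kb. It had 404 CPM in replicate 1 and 413 CPM in replicate 2, a ratio of 0.973 (0.904 to 1.05), and this interval overlapped that of Mir135a-2. Mir1251 had a mean of 408 ± 6.87 CPM and Mir135a-2 one of 184 ± 8.86 CPM (SD, n = 2 each), so the Rmst genes differed in level beyond their spread between the libraries, for the reads that could be assigned. No other microRNA gene was annotated within 100 kb of Mir135b.

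By distance over the log2 CPM of the 2 libraries, the gene most like Mir135b was Mir181d, at 6797 CPM in replicate 1 and 4303 CPM in replicate 2 (distance 0.11 log2 units). It was followed by Mir127 (distance 0.25) and Mir23b (distance 0.27). Nearest to Mir135a-1 were Mir148b at 286 and 250.4 CPM (distance 0.11), Mir301b (0.14) and Mir7-1 (0.16). Mir135a-2 was nearest to Mir496a at 180 and 174 CPM (distance 0.09), Mir19a (0.12) and Mir877 (0.18). With 2 libraries this likeness reflects level and the ratio between pools alone.

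Among 26 listed microRNA symbols known from midbrain dopaminergic neurons, neurogenesis or Wnt regulation, 24 were counted and 20 had at least 10 reads in both libraries. By gene-assigned reads, Mir126a was the only counted gene of the list with a higher mean than Mir135b. Listed genes that share sequence with another locus can lose reads and Mir135b does not share any such stretch, so this is not an order of mature microRNAs. Mir34c and Mir34b, which in mouse act on Wnt1, had 1121 and 34.6 CPM in replicate 1 and 1081 and 40.5 CPM in replicate 2. Mir34a of the same family had 109 and 103 CPM. Mir132, known to act on the dopaminergic factor Nr4a2, had 97.9 and 87.7 CPM, and its cluster partner Mir212 had 10.9 and 13.6 CPM. Mir133b, known from a circuit with Pitx3 in dopaminergic neurons, had 0 reads in both libraries, a count that allows up to 3 assigned reads. Its sequence is shared with another locus and it can lose reads, so this 0 does not give the level of the mature microRNA.

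The list varied between the pools as all genes did. Of its 21 tested members, the exact binomial test called 7 higher and 5 lower in replicate 1, or 57.1% against 49.7% of all tested genes, and 9 were not called. Its median log2 ratio was 0.08, against 0.02 over all 485 tested genes. The Mir7 genes, whose product in mouse represses alpha-synuclein and Pax6, were called higher in replicate 1. Mir7b had 213 CPM in replicate 1 and 91.2 CPM in replicate 2, Mir7-1 had 282 and 208 CPM, and Mir7-2 had 145 and 103 CPM. Mir9-3, of the neurogenic miR-9 group, was called higher too, at 137 and 66.8 CPM, as were Mir124a-2 at 17.0 and 9.78 CPM, Mir27b at 642 and 497 CPM and Mir145a at 107 and 88.5 CPM. Mir126a, Mir200c, Mir141, Mir204 and Mir184 were called lower in replicate 1, with Mir200c of epithelium at 331 and 545 CPM and Mir141 of the same cluster at 55.5 and 83.1 CPM. Mir204 had 235 and 268 CPM. Mir184 had 3 reads in replicate 1 and 95 in replicate 2. Mir34a, Mir34b, Mir34c, Mir132, Mir212, Mir218-1, Mir218-2, Mir27a and Mir124a-3 did not pass. Mir218-2 had 94.9 and 85.0 CPM, Mir218-1 had 17.6 and 15.2 CPM, Mir27a had 88.5 and 86.6 CPM and Mir124a-3 had 4.85 and 9.23 CPM. Of the 20 detected genes 9 have 20 bases in a row in common with a microRNA gene elsewhere, as the mir-135a genes do, and can lose reads in the same way.

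**Figure D4:**
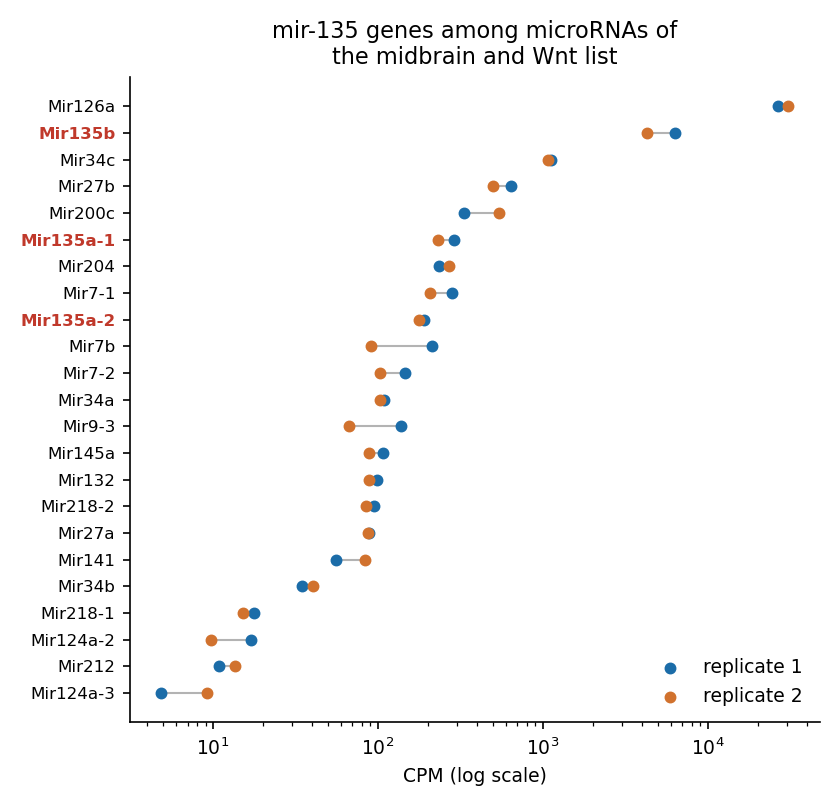
CPM in replicate 1 (blue) and replicate 2 (orange) on a log axis for the 20 listed microRNA genes with at least 10 reads in both libraries and the mir-135 genes (red names), ordered by mean. Mir135b stands below Mir126a alone, and Mir135a-1 and Mir135a-2 stand between Mir200c and Mir7b. The order is one of gene-assigned reads, which genes that share sequence with another locus can lose.

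The mRNAs of the Lmx1b and Wnt circuit were not measured, and the annotated 3′ UTRs were searched for the miR-135 seed as context. The letters searched were AAGCCAT, the complement of bases 2 to 8, on the mRNA strand of the longest annotated 3′ UTR of each gene (GENCODE M21). They occurred in 7 of 30 listed genes, and in 13.0% of all 21027 annotated 3′ UTRs. A longer UTR holds a given match more often, and over UTRs within 20% of the length of each listed one the share averaged 19.1%. The list held 0.128 matches per kb against 0.104 per kb over all UTRs. A match is a description of the letters, not evidence of regulation.

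The 3′ UTR of Lmx1b, 3671 bases long, held no match to bases 2 to 8, nor did those of Wnt1, Lmx1a, Otx2 or En1. Of UTRs of similar length to that of Lmx1b, 31.5% held the match. A shorter form of seed match, bases 2 to 7 followed by an A (letters AGCCATA), was searched after this result was seen. It occurred once in the UTR of Lmx1b, 107 to 113 bases after the stop codon, and in 19.8% of UTRs of similar length and 8.51% of all. The site is shown with its neighbouring bases and the matched letters in capitals (minus strand, chr2:33564512-33564541, mm10).
Lmx1b: gactcttcagacAGCCATAcggtgccctcc
This form occurred in 6 of the 30 genes, Lmx1b, Lrp6, Creb1, Gsk3b, Pax5 and Rspo2. The core AGCCAT alone, which it contains, occurred in 13, with Wnt1 and Lmx1a among them, and in 33.7% of all UTRs. In UTRs of similar length to that of Lmx1b the core occurred in 72.2%. The listed UTRs are longer, with a median of 1468.5 bases against 960 over all. For these shorter forms the share at similar length to each listed UTR was not taken, so the counts of 6 and 13 show no excess.

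The 7 genes with a match to bases 2 to 8 had UTRs of unequal length, and so of unequal background. Tcf7l2, a transcription factor that acts with beta-catenin, held 2 matches in 2239 bases, where 19.7% of UTRs of similar length held at least 1. Rspo2, a secreted enhancer of Wnt signalling, and Gsk3b, the kinase that marks beta-catenin for destruction, held 1 match each, in 1733 and 5515 bases, and in both the match was followed by an A. Of UTRs of similar length 15.5% held a match for Rspo2 and 44.6% for Gsk3b. The receptor genes Fzd1 and Fzd3 and the ligand gene Wnt5a held 1 match each, where 16.5%, 64.9% and 37.2% of UTRs of similar length held a match. Pax5, a transcription factor of the midbrain-hindbrain boundary, held 2 in 6749 bases, where 48.6% held at least 1. Of all annotated UTRs, of any length, 1.98% held 2 or more, and the share with 2 or more at similar length was not taken. The sites of Tcf7l2, Rspo2 and Gsk3b are shown since they combine a paired or extended match with a role in the pathway (plus strand of chr19:55932842-55932871 and chr19:55933552-55933581, minus strand of chr15:43020977-43021006 and plus strand of chr16:38243448-38243477, mm10).
Tcf7l2, first site: aacttgctttaaAAGCCATtctgtaaaaca
Tcf7l2, second site: tgaatggttttgAAGCCATtttgtaatgaa
Rspo2: ttgatgcaagatAAGCCATatatgaatgtt
Gsk3b: acgagctttttaAAGCCATatagttttaac
The capitals mark the complement of the seed that Mir135b, Mir135a-1 and Mir135a-2 share, so the letters do not tell the members apart.

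**Figure D5:**
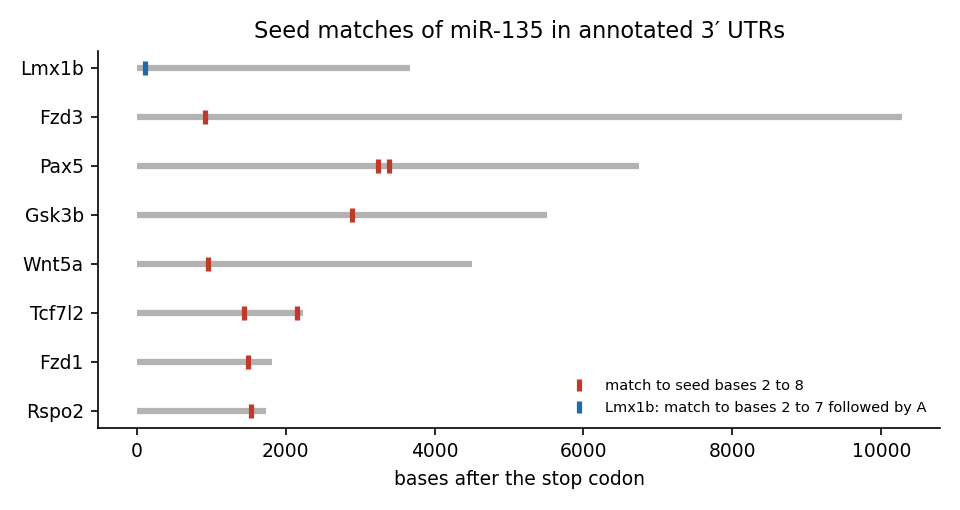
Annotated 3′ UTRs (grey, to scale in bases after the stop codon) of the 7 listed genes with a match to seed bases 2 to 8 (red) and of Lmx1b, whose match to bases 2 to 7 followed by an A (blue) starts 107 bases after the stop codon.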

How the data were processed

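Each library has a deposited table of raw counts by microRNA gene, from reads aligned to mm10 and counted by the authors on annotation M4, per the file descriptions. The aligner and the trimming of adapters were not given in the sources used here. The first count column was used, which equals the sum of the other 2 in each of the 1973 gene rows. The second held 97.4% and 97.3% of its reads and was taken as the gene strand. The 4 rows without a gene were left out of library sizes, and held 57.8% and 60.9% of the reads. Identifiers were matched to GENCODE M21 (GRCm38), with 1894 matched. The members and lists were chosen with earlier results of these data known. Listed Mir7a-1 and Mir7a-2 are Mir7-1 and Mir7-2 in M21.

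Ratios are replicate 1 over replicate 2, with 0.5 added reads and TMM scaling (edgeR 4.0.16). The exact binomial test (two-sided, at least 10 reads in sum) was adjusted by Benjamini-Hochberg over all genes. No edgeR test was run, because there is 1 group. Intervals are at 95%, and a count of 0 allows 3 reads. Alternatives were DESeq2 size factors (DESeq2 1.42.0), total counts, other filters, strand columns, library totals and leaving out each replicate. Shared stretches of 20 bases were sought between M21 microRNA loci that do not overlap, and 929 counted genes had one. Genes named are the 3 members, microRNA genes within 100 kb, the 3 nearest in level to each, and the listed microRNAs with at least 10 reads in both libraries. Mir133b, Mir184 and the marker genes were named after their values were seen. Folding used RNAfold 2.7.2. Computing was done in R 4.3.3 and in Python 3.11.15 with matplotlib 3.10.9, scipy 1.17.1, pandas 2.3.3 and numpy 2.4.6.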

Additional observations from a re-analysis of the deposited data

How the results depend on the processing

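The direction and the call of the 3 ratios were the same with DESeq2 size factors, total counts, 2 added reads and the gene strand column, with log2 ratios of 0.52 to 0.56 for Mir135b, 0.28 to 0.32 for Mir135a-1 and 0.06 to 0.10 for Mir135a-2. The number of genes beyond counting noise, 241 of 485, was 173 to 240 under its alternatives, which tested other numbers of genes. Its share, 49.7%, was 29.6% with genes of at least 1 read in sum (228 of 769) and 64.1% with at least 50 (227 of 354). With DESeq2 size factors 115 genes were higher and 120 lower in replicate 1, against 129 and 112. Per 1000000 reads of the whole library, the mean levels were 2167 for Mir135b, 106 for Mir135a-1 and 74.8 for Mir135a-2, by construction lower. Without the most abundant gene in the library size, Mir135a-2 had 211 CPM. The opposite strand column gave 0 CPM for each. Without a replicate, the levels were 4278 to 6306, 232 to 288 and 178 to 190 CPM, and the ratios of reads 18.5 to 21.9 (Mir135b over Mir135a-1), 24.1 to 33.2 (Mir135b over Mir135a-2) and 1.30 to 1.52 (Mir135a-1 over Mir135a-2). Per base of annotated gene, Mir135a-1 over Mir135a-2 was 1.57 in place of 1.41. A match to seed bases 2 to 7 alone, chosen after seeing the data, was found in 13 listed genes in place of 7. No paired analysis was possible because there is 1 group. With 2 pools and reads that are not independent molecules, the exact test's calls can be too many, and the reads of miR-135a-5p that mapped to both of its genes are missing at any depth.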
